A study of Mus musculus with 12 samples.

Results

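The genes described here are the cytosolic ribosomal protein genes of the mouse, as far as an expression array could name them one by one. A gene was taken where the platform annotation gave a probe set a single symbol made of Rpl or Rps followed directly by a number, or the symbol Rplp0, Rplp1, Rplp2 or Rpsa, and kinases of the Rps6k family, pseudogene symbols and mitochondrial Mrp genes were left out. The rule found 50 genes of the 18194 genes measured, 26 of the large and 24 of the small subunit. The measured level of a gene was the log2 value of its brightest probe set, a group of short probes for one transcript, chosen by the mean over the 12 arrays. RNA came from pooled left ventricles (LV) or right ventricles (RV) of embryos at 14.5 days post coitum, with 15 to 30 embryos behind each sample. The wild-type embryos (WT) were CD1 mice, and the Nos3-/- embryos (KO) carried the B6.129P2-Nos3tm1unc/J targeted allele. Each of the 4 groups, WT LV, WT RV, KO LV and KO RV, had 3 arrays. Every KO sample differed from every WT sample in strain as well as in Nos3, so strain and genotype cannot be told apart in any comparison below.

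Ribosomal proteins are built into the small and the large ribosomal subunit together with ribosomal RNA, and their mRNAs are among the most abundant of growing cells. Most of these mRNAs begin with a run of pyrimidines at the 5′ end, the TOP motif, through which mTOR signalling and the RNA-binding protein Larp1 control their translation. Spare or unassembled ribosomal proteins can bind Mdm2 and raise p53, and heterozygous loss of any of several ribosomal protein genes causes Diamond-Blackfan anaemia, in which heart malformations also occur. Nos3 encodes the endothelial nitric oxide synthase, and embryos without it develop heart malformations.

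The start regions are shown first for Rpl14, Rps25, Rps18, Rpsa, Rpl41 and Rpl37, which passed a genotype test. Rpl38 and Rplp2, which passed no test, are shown for comparison. The other called genes, Rpl12 among them, are not shown. Each line gives 45 bases before and 15 bases from the RefSeq transcription start, 5′ to 3′ on the strand of the gene, from the RefSeq promoter table of build GRCm38.p6. Capitals mark pyrimidine runs of at least 8 letters and, on either strand, the letters CTTTCC, the ETS core CCGGAA, the TATA box TATAAA and the Sp1 core GGGCGG.
Rpl14 (chr9:120571472-120571531, plus strand): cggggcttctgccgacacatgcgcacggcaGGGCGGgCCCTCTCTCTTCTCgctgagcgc
Rps25 (chr9:44407669-44407728, plus strand): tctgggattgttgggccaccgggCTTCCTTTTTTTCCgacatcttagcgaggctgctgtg
Rps18 (chr17:33955651-33955710, minus strand): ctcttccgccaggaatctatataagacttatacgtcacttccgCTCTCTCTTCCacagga
Rpsa (chr9:120127721-120127780, plus strand): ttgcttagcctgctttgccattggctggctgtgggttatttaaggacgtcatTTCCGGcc
Rpl41 (chr10:128549154-128549213, minus strand): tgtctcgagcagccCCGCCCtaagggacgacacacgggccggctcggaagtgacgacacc
Rpl37 (chr15:5116568-5116627, plus strand): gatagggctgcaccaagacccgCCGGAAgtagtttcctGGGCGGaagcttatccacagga
Rpl38 (chr11:114668535-114668594, plus strand): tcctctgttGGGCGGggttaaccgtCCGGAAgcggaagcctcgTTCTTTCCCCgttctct
Rplp2 (chr7:141447606-141447665, plus strand): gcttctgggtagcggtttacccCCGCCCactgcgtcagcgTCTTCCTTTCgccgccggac

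Rpl14 and Rps25, whose values differed between the genotypes by the most apart from Rpl12, both carried a pyrimidine run of 14 letters, and the run of Rps18 had 11. Rplp2 and Rpl38, which passed no test, had runs of 10 letters, and the longest run printed for Rpl41 had 4. Among the lines printed, runs thus occurred on both sides of the test. The run marked for Rps25 ended before the RefSeq start, outside the annotated transcript, and the other marked runs spanned the start. Called and other genes were not compared beyond these lines. The table held 52 promoters for 44 of the 50 genes. A pyrimidine run of at least 8 letters within 25 bases of the start was found in 23 of those 52 promoters (44.2%), against 19.7% of all 32851 promoters of the table. In the whole windows, 250 bases before and 50 after the start, CCGGAA stood in 28 of 52 (53.8%) against 14.9% of all promoters, and CTTTCC in 24 of 52 (46.2%) against 26.6%. GGGCGG stood in 28 of 52 (53.8%) against 35.7%, and TATAAA in 6 of 52 (11.5%) against 13.6%. Both strands were searched for the 4 motifs, the run was sought on the strand of the gene, and CTTTCC can lie inside a pyrimidine run. All 50 genes matched RefSeq entries of the same symbol, spread over 17 chromosomes.

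The signal of 35 of the 50 genes lay at or above 13 on the log2 scale, from 13.24 to 14.74, close to the top of a table whose values ran from 2.42 to 15.19. This division at 13 was chosen after the levels were seen, and the next gene below it, Rps27l, had a mean of 12.52. The brightest signals belonged to Rps29, a small zinc-binding protein of the small subunit, to Rpl41, the shortest ribosomal protein, and to Rplp2, a protein of the large subunit's stalk. The dimmest belonged to Rps16, to the striated-muscle paralogue Rpl3l and to Rpl39l, a paralogue of Rpl39, and these 3 were the genes below 5.67, the median of all values. Probes differ in brightness, so these values set the scale of each measurement and do not rank the genes by abundance. The median standard deviation of a gene within a group was 0.05 for the 35 bright genes and 0.14 for the other 15, against 0.14 for all genes. Rpl12, Rpl27a and Rps25 varied most within groups, with standard deviations of 0.52, 0.35 and 0.20.

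Several measures of the arrays bear on the comparisons. All 10 cardiomyocyte markers were measured, and none fell below the median of all values. Their mean ran from 13.21 to 13.66 over the arrays. No measured endothelial, epicardial, mesenchymal or proliferation marker fell below that median either, so this bar alone does not check the labelled tissue or ventricle. Nos3 itself stood at 7.94 ± 0.08 (SD, n = 3) in KO LV and 8.35 ± 0.05 in WT LV, and at 8.01 ± 0.23 in KO RV and 8.68 ± 0.29 in WT RV. It passed the test in both ventricles (limma, adjusted p = 0.0376 in LV and 0.00983 in RV), its groups did not overlap, and the exact two-sided permutation test gave its smallest possible p of 0.1 in each. The mean of 3 control probe sets for 18S ribosomal RNA was 12.15 to 12.60 on the WT LV arrays and 12.77 to 13.03 on the KO LV arrays. WT RV replicate 3 at 12.30 and KO RV replicate 3 at 12.05 stood below the other arrays of their groups, which lay at 13.07 and 13.11 in WT RV and at 12.69 and 12.87 in KO RV. The mean of 24 poly-A control probe sets was 8.89 to 8.94 in WT LV, 8.06 to 8.47 in KO LV, 8.05 to 8.96 in WT RV and 7.35 to 8.37 in KO RV. In RV the highest was replicate 3 in both groups, with 8.05 and 8.13 on the other WT arrays and 7.35 and 7.90 on the other KO arrays. The mean of 18 hybridisation control probe sets was 11.56 to 11.70 in WT LV and 11.58 on WT RV replicate 3. It was 11.34 and 11.52 on the other WT RV arrays, 11.33 to 11.41 in KO LV and 11.34 to 11.42 in KO RV. The samples are pools with no label that ties them to separate litters or days, so the tests measure the spread between these samples, which may be partly technical.

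The mean log2 value of the 50 genes was 12.60, 12.64 and 12.56 on the 3 WT LV arrays and 12.46, 12.46 and 12.42 on the 3 KO LV arrays. In RV it was 12.43, 12.44 and 12.59 on the WT arrays and 12.43, 12.42 and 12.50 on the KO arrays. The WT LV arrays thus stood above the KO LV arrays without overlap, while in RV the genotypes overlapped. The highest value of each RV group was that of replicate 3, the same pair of arrays whose 18S controls were low and whose poly-A controls were the highest of their group. Over all arrays the poly-A controls were highest on the WT LV arrays and WT RV replicate 3, at 8.89 to 8.96, and at most 8.47 elsewhere. On WT RV replicate 3, 38 of the 50 genes lay above their own median over the arrays, against 14 and 19 on the other WT RV arrays. On KO RV replicate 3 the count was 29, against 9 and 8. The part of the 18S and poly-A differences in these levels was not tested beyond the fits with each as a covariate, given below. The part of the hybridisation control differences was not tested. Other genes with a mean of at least 13 went the other way: their mean was 13.59 to 13.63 on the WT LV arrays and 13.63 to 13.68 on the other 9.

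**Figure D1:**
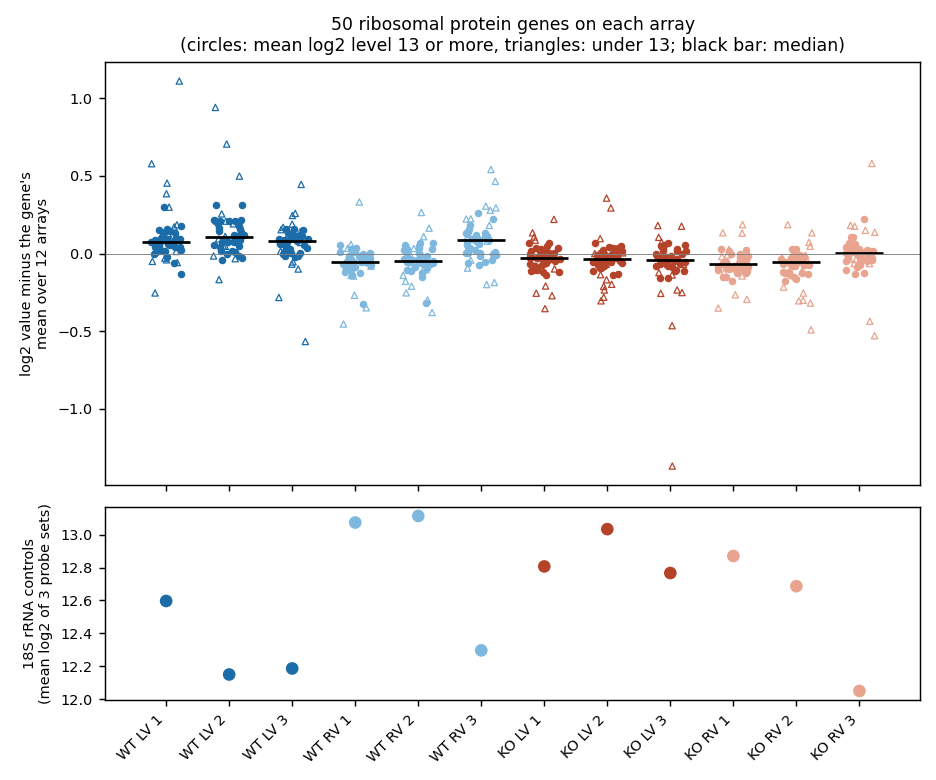
Top, the log2 value of each of the 50 ribosomal protein genes on each of the 12 arrays, minus the gene's own mean over the arrays, with circles for the 35 genes of mean 13 or more, triangles for the other 15 and a black bar at the median. Bottom, the mean log2 value of 3 control probe sets for 18S ribosomal RNA on the same arrays. The bars of the 3 WT LV arrays and of WT RV replicate 3 lie highest, and the same 4 arrays are among the 5 with the lowest 18S controls.

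The first comparison asked how the left ventricle of Nos3-/- embryos differed from the wild-type left ventricle. In LV, 10 of the 50 ribosomal protein genes fell in KO and 0 rose, at an adjusted p under 0.05 in limma's moderated test over all 18194 genes. That is 20% of the ribosomal protein genes, against 12.3% of all genes called lower, 18.6% called higher and 30.9% called in either direction. Among the 10 were 5 of the 24 genes named for the small subunit and 5 of the 26 named for the large. With Rps19bp1 and Rpl7l1 set aside, whose products are not structural proteins of the ribosome, they were 4 of 23 and 4 of 25. The median difference of the 50 genes, KO minus WT, was -0.12 on the log2 scale, against -0.01 over all genes, and 41 of 50 differences were negative (82%) against 52.0% of all genes. With the 18S controls as a covariate the median was -0.05, and with the poly-A controls -0.05, against 0.004 and 0.006 over all genes. At an unadjusted p under 0.05 the count in either direction was 16, against 41.7% of all genes. In bulk tissue, fewer cells of a type and less RNA per cell cannot be told apart.

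Rpl12, a large-subunit protein at the base of the stalk, gave 9.23, 9.06 and 8.26 in WT LV and 8.02, 7.95 and 6.75 in KO LV. It fell by 1.28 on the log2 scale (SE 0.33, limma adjusted p = 0.011). The groups did not overlap, and replicate 3 of each lay clearly below the other arrays of its group. Rps25, a small-subunit protein that many viral internal ribosome entry sites need, gave 10.29, 10.61 and 10.35 in WT LV and 9.55, 9.60 and 9.44 in KO LV. It fell by 0.89 (SE 0.14, limma adjusted p = 0.00071), with every KO value well below every WT value. Rpl14, a protein of the large subunit, gave 9.56, 9.48 and 9.24 in WT LV and 8.71, 8.70 and 8.73 in KO LV. It fell by 0.71 (SE 0.13, limma adjusted p = 0.0014), and the 3 KO values lay within 0.03 of each other. Rpl14 and Rps25 also passed the test in all 26 alternative fits at the same threshold, and Rpl12 in 25 of them. Many of these fits could not move the LV differences. Each gene had 1 probe set, so another choice of probe set kept its values. Leaving out RV arrays changed only the shared spread.

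The other 7 differences were smaller than 0.5. Rps19bp1, which the rule takes in although its product binds Rps19 and is not part of the ribosome, gave 9.69 to 9.76 in WT LV and 9.27 to 9.44 in KO LV and fell by 0.41 (adjusted p = 0.0075). Rpl7l1, a paralogue of Rpl7 that acts in the assembly of the large subunit, gave 10.45 to 10.58 and 10.07 to 10.23 and fell by 0.34 (adjusted p = 0.012). Rps18, of the head of the small subunit, gave 14.49 to 14.55 and 14.18 to 14.23 and fell by 0.31 (adjusted p = 0.024). Rps3, at the mRNA entry of the small subunit, gave 14.06 to 14.12 and 13.77 to 13.84 and fell by 0.29 (adjusted p = 0.025). Rpl41 gave 14.83 to 14.95 and 14.58 to 14.62 and fell by 0.27 (adjusted p = 0.033). Rpl10a, of the large subunit's L1 stalk, gave 13.91 to 14.01 and 13.69 to 13.71 and fell by 0.26 (adjusted p = 0.023). Rpsa, a small-subunit protein also known as the laminin receptor, gave 14.45 to 14.49 and 14.23 to 14.27 and fell by 0.22 (adjusted p = 0.030). In none of these 7 did the groups overlap. Their differences were small on the log2 scale but stood beyond the spread of each group, which was at most 0.10 (SD, n = 3).

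**Figure D2:**
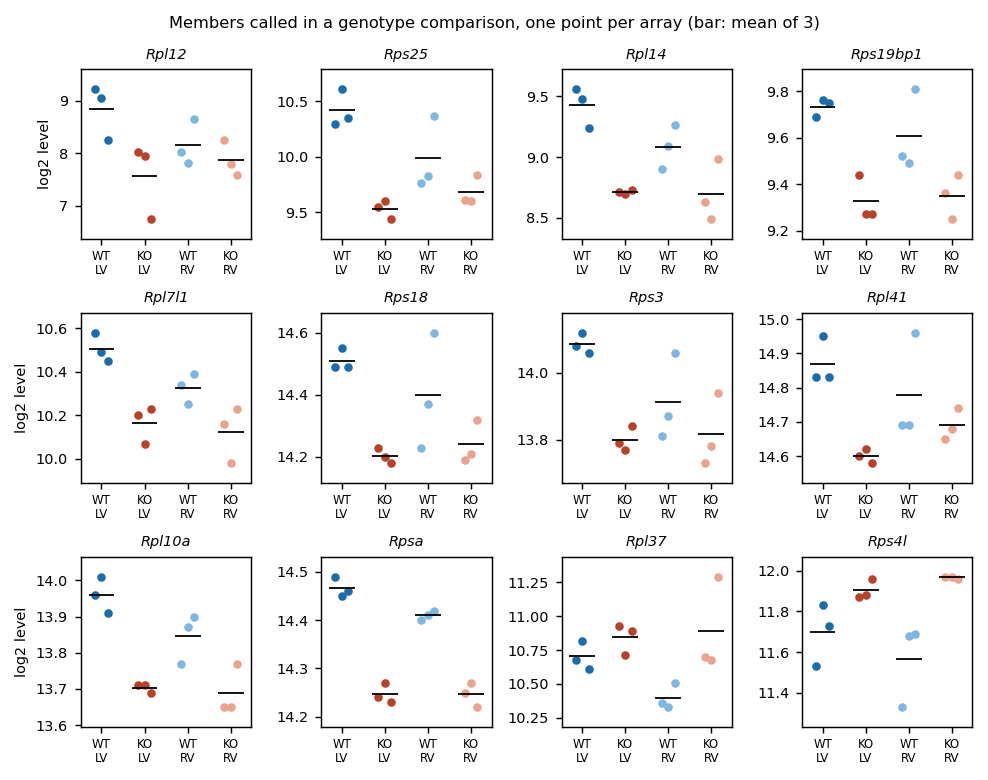
The log2 value of each array for the 12 ribosomal protein genes called in a genotype comparison, in the 4 groups, with a bar at the mean of 3 arrays. The axes do not start at 0 and differ between panels. In the panels of the 10 genes that fell in LV, every KO LV point lies below every WT LV point, and the KO RV points lie lower than the WT RV points in some panels and among them in others.

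Beyond the genes that passed the test, the LV groups did not overlap in 30 of the 50 genes with KO lower (60%), against 20.6% of all genes. They did not overlap in 3 with KO higher, namely Rpl4, Rps4x and Rps4l, against 23.8% of all genes. The latter count was 5 without WT LV replicate 3 (30.7% of all genes) and 5 without KO LV replicate 3 (25.4%). The 30 became 26 with the mean of probe sets (20% of all genes) and 27 with probe sets without x or s endings (20.2%). They became 28 after a second quantile normalization (23.7%), 32 with median centring (23.4%) and 30 to 35 leaving out single arrays. Among the 35 bright genes, 24 did not overlap with KO lower, against 37.8% of the 230 genes with a mean of at least 13. The calls of the bright genes lay at the background, since 5 of the 35 fell by the test (14.3%), against 14.3% of those 230 genes. Of the 15 dimmer ones 5 fell (33.3%), Rps19bp1 and Rpl7l1 among them, against 12.3% of the 17964 genes below 13. The median difference was -0.13 for the bright and -0.12 for the dimmer ribosomal protein genes. The difference of the bright genes ran from -0.31 to 0.08 and that of the dimmer genes from -1.28 to 0.21. Many bright genes thus differed little in size while their groups stayed apart. Rpl38, whose mutation in mice alters the skeleton, is an example: it gave 14.63, 14.63 and 14.64 in WT LV and 14.49, 14.50 and 14.53 in KO LV, a difference of -0.13 (limma adjusted p = 0.22).

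Genes at the other end differed little. Rps29 gave 14.73, 14.71 and 14.74 in WT LV and 14.70, 14.76 and 14.71 in KO LV, and the groups overlapped. Rpl4, a large-subunit protein of the exit tunnel, gave 14.18, 14.20 and 14.23 in WT LV and 14.27, 14.28 and 14.30 in KO LV, a difference of 0.08 (limma adjusted p = 0.45). Rps4x, of the small subunit, gave 14.36, 14.38 and 14.34 against 14.41, 14.41 and 14.43. The stalk proteins Rplp0 and Rplp2 differed by -0.07 and -0.05 and did not pass the test, and Rplp1 had no probe set of its own.

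Named subsets of the ribosomal protein genes gave the following counts in LV, where 12.3% of all genes were called lower and 18.6% higher. Of the 19 genes on the Diamond-Blackfan anaemia list, 11 were measured and 0 passed the test, with differences from -0.24 to 0.04. Rps19, the gene most often mutated in that anaemia, gave 14.08 ± 0.11 (SD, n = 3) in WT LV and 13.85 ± 0.02 in KO LV, a difference of -0.24 (limma adjusted p = 0.059). Rpl11, the one measured gene of the 5S particle that binds Mdm2, differed by -0.11. Among 33 families with counterparts in all domains of life, 20 were measured and 5 fell, namely Rpl12, Rps18, Rps3, Rpl10a and Rpsa. Fau, a ribosomal protein gene with another kind of symbol, differed by -0.30 without passing the test.

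The count of 10 in LV moved with the processing. It was 3 with the 18S controls as a covariate and 3 with the poly-A controls as a covariate, in both cases Rpl12, Rpl14 and Rps25, where 5.25% and 4.31% of all genes were called lower. Of the following counts, each stands beside the share of all genes called lower in the same fit. It was 6 without KO LV replicate 1 (9.7%), 4 without KO LV replicate 2 (7.81%) and 6 without KO LV replicate 3 (8.67%). It was 5 without WT LV replicate 1 (9.81%) and 5 without WT LV replicate 2 (9.13%). It was 3, Rpl14, Rpl7l1 and Rps25, without WT LV replicate 2 and KO LV replicate 3, whose nuclear noncoding RNAs were extreme (5.6%). Without the RV arrays of low 18S, WT RV replicate 3 and KO RV replicate 3, it was 16 (14.6%), and without WT RV replicate 3 alone 15 (14.3%). The difference of Rpl14 ran from -0.81 to -0.52 over the alternatives and that of Rps25 from -0.95 to -0.62.

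**Figure D3:**
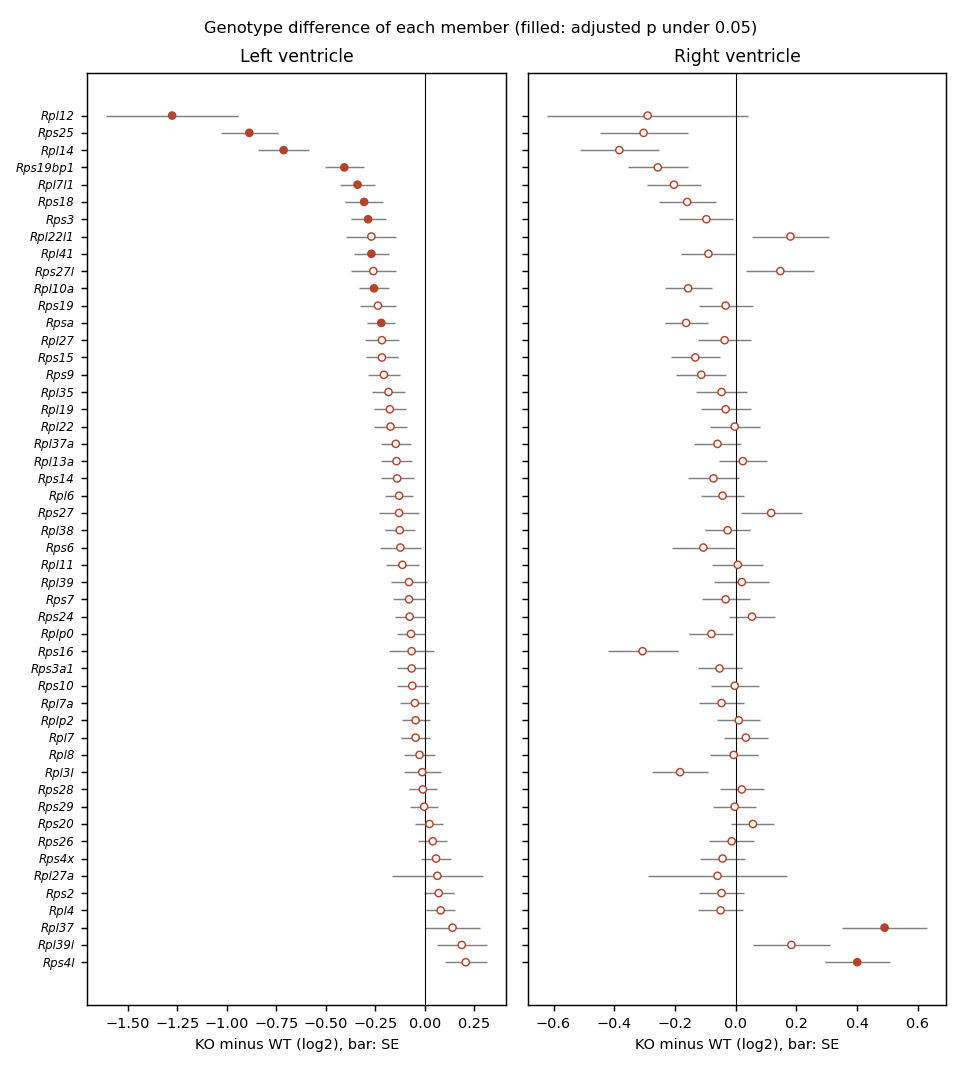
The difference KO minus WT of each of the 50 ribosomal protein genes in log2 units, in LV (left) and RV (right), with the standard error as a bar and filled points for an adjusted p under 0.05. The genes are in the order of their LV difference. In LV 41 points lie left of 0 and 10 are filled, all of them left of 0, while in RV only Rpl37 and Rps4l are filled, both to the right.

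The second comparison asked the same of the right ventricle. There 2 ribosomal protein genes rose in KO and 0 fell, against 4.61% of all genes called higher, 3.58% called lower and 8.19% called in either direction. At an unadjusted p under 0.05 the count was 7, against 25.9% of all genes. The median difference of the 50 genes was -0.04, equal to that of all genes, and 36 of 50 were negative (72%) against 58.3%. The RV groups did not overlap in 6 genes with KO lower (12%), against 17.6% of all genes, and in 3 with KO higher, against 11.8%. Single arrays moved these counts: the 6 became 17 (34%) without KO RV replicate 3, where 24.3% of all genes did not overlap with KO lower, 10 without WT RV replicate 1 (24.6%), 11 without WT RV replicate 2 (22.9%) and 19 (38%) without both RV arrays of low 18S (30.7%). The 3 became 9 without WT RV replicate 3, where 16% of all genes did not overlap with KO higher. The 6 were Rpl7l1, Rplp0, Rps15, Rps19bp1, Rps2 and Rpsa.

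Rpl37, a zinc-binding protein of the large subunit, gave 10.36, 10.33 and 10.51 in WT RV and 10.70, 10.68 and 11.29 in KO RV, and rose by 0.49 (SE 0.14, limma adjusted p = 0.048). One array set its size: without KO RV replicate 3 the difference was 0.29 (adjusted p = 0.14). It passed the test in 9 of 26 alternative fits. Rps4l, a paralogue of Rps4x, gave 11.33, 11.68 and 11.69 in WT RV and 11.97, 11.97 and 11.96 in KO RV, and rose by 0.40 (SE 0.11, limma adjusted p = 0.035). It passed in 18 of 26 alternative fits, and without WT RV replicate 1, the lowest array, the difference was 0.28 (adjusted p = 0.089). When either gene was tested on the RV arrays alone it missed the threshold, with an adjusted p of 0.11 for Rpl37 and 0.077 for Rps4l. Without WT RV replicate 3 and KO RV replicate 3, the arrays of low 18S, neither passed. The count of 2 became 0 without KO LV replicate 1, where 704 of all 18194 genes were higher. It was 0 as well without KO RV replicate 1 (447), KO RV replicate 3 (456) or WT RV replicate 1 (1095). It was 1 without each of the other 8 arrays (529 to 902).

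The 10 genes that fell in LV had smaller differences in RV, where none passed the test. They were chosen by the LV test, so smaller differences in RV can follow from that choice alone. With the 18S controls as a covariate, Rpl14, Rps19bp1 and Rps25 were called lower in RV, as were 1374 of all 18194 genes. The median difference of the ribosomal protein genes was then -0.05 in LV (0.004 over all genes). In RV it was -0.06 (-0.05 over all genes). Rpl12 gave 8.03, 7.82 and 8.66 in WT RV and 8.25, 7.80 and 7.59 in KO RV, with overlapping groups and a difference of -0.29. Rps25 gave 9.76, 9.83 and 10.37 against 9.61, 9.60 and 9.84, a difference of -0.30 with overlap. Rpl14 gave 8.90, 9.09 and 9.26 against 8.63, 8.49 and 8.98, a difference of -0.38 (limma adjusted p = 0.085). Rpsa gave 14.40, 14.41 and 14.42 against 14.25, 14.27 and 14.22, a difference of -0.16 without overlap (limma adjusted p = 0.16). Rps18 gave 14.23, 14.37 and 14.60 against 14.19, 14.21 and 14.32, with the highest value of each group on replicate 3.

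Whether the genotype difference itself differed between the ventricles was tested as the interaction, the RV difference minus the LV difference. It was called for 0 of the 50 ribosomal protein genes, and 0.022% of all genes were called. By limma at an unadjusted p under 0.05 the count was 3, against 13.9% of all genes. The median interaction was 0.09, against -0.06 over all genes, and -0.001 with the 18S controls as a covariate, again against -0.06. It was 0.99 for Rpl12 (limma adjusted p = 0.36), 0.58 for Rps25 (0.31), 0.45 for Rpl22l1 (0.32) and 0.41 for Rps27l (0.31). Rpl22l1 gave 13.54, 13.55 and 13.31 in WT LV, 13.19, 13.20 and 13.20 in KO LV, 12.91, 12.92 and 13.33 in WT RV and 13.14, 13.10 and 13.46 in KO RV. The WT LV arrays and replicate 3 of each RV group were high, and all others were low. Without WT RV replicate 3 the interaction was called for Rpl22l1, Rps25 and Rps27l, at 0.59, 0.78 and 0.54, where 2.74% of all genes were called higher, and the same 3 were called with array weights, where 2.84% were. The comparisons of genotype and of ventricle share arrays, so their values are given side by side and no likeness is read from them.

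The ventricles were compared within each genotype. In WT, 0 of the 50 genes passed the test between RV and LV, where 0.984% of all genes did, 0.764% with RV higher and 0.22% with RV lower, and 6 had an unadjusted p under 0.05 in limma, against 17.1%. The median difference, RV minus LV, was -0.09 against 0.05 over all genes, and 44 of 50 were negative (88%), against 38.5% of all genes. The groups did not overlap in 13 genes with RV lower (26%), against 4.85% of all genes, and in 1 with RV higher, Rpl3l, against 10.9%. Of the 35 bright genes 11 did not overlap with RV lower, against 10% of the 230 bright genes overall. Without WT RV replicate 3 the 13 became 37 (74%), where 15.1% of all genes did not overlap with RV lower, and 3 genes were called lower, again Rpl22l1, Rps25 and Rps27l, against 3.11% of all genes. With array weights 6 were called lower, against 4.27%, and without both RV arrays of low 18S 6 were, against 4.34%. Without WT LV replicate 3 the 13 became 21, and the share of all genes 10.1%. In KO, 0 genes passed the test, against 1.14% of all genes, 0.55% with RV higher and 0.594% with RV lower, and 0 had an unadjusted p under 0.05 in limma, against 10.3%. The median difference there was -0.003, the same as over all genes, and the groups did not overlap in 7 genes with RV lower (14%), against 10.4%, and in 2 with RV higher, Rpl41 and Rps27l, against 9.24%. Without KO RV replicate 3 the 7 became 16 (32%), against 15.8% of all genes, and the 2 became 4, against 13.5%. Without KO LV replicate 2 the 2 became 4 as well, against 11.8%.

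The paralogues of ribosomal protein genes were read beside their canonical genes where both were measured, since near-identical copies can share probes. Rps4l differed between KO and WT by 0.21 in LV and 0.40 in RV, and Rps4x by 0.06 and -0.04. Rps27l, a p53 target, gave 12.69, 12.71 and 12.59 in WT LV and 12.31, 12.45 and 12.45 in KO LV, a difference of -0.26 (limma adjusted p = 0.094), and differed by 0.15 in RV. Rps27 differed by -0.13 and 0.12, from a probe set whose signal averaged 6.68. Rpl22l1 differed by -0.27 in LV and 0.18 in RV, and Rpl22 by -0.17 and -0.003. Rpl7l1 fell by 0.34 in LV, while Rpl7 differed by -0.05. Rpl3l, at 4.43 to 4.54 in WT LV and 4.63 to 4.93 in WT RV, stayed near the bottom of the scale in every group, and Rpl3 had no single-symbol probe set. Rpl39l differed by 0.19 in LV and 0.18 in RV without passing the test, and Rpl39 by -0.08 and 0.02.

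Ribosomal protein genes have many processed pseudogenes, and probe sets can read more than one locus, so the probe sets of a gene were set beside each other. The 50 genes had 106 probe sets of their own, and 24 genes had more than one. Of the 50 probe sets used, 13 had the ending _x_at and 2 the ending _s_at, by which the manufacturer marks probes that may match several transcripts. In 20 genes more than one probe set averaged above 5.67, and in 14 of these the dimmest gave a more negative LV difference than the brightest. Rpl13a, a large-subunit protein also known from translational silencing, had LV differences of -0.14, -0.22, -0.49 and -0.64 from probe sets with mean signals of 14.33, 14.04, 13.19 and 12.50. Its probe set used here did not pass the test, and the last 2 did when every probe set was tested on its own (limma adjusted p = 0.0041 and 0.0044). Rpl41 had -0.27, -0.22, -0.47 and -0.65 from signals of 14.73, 14.55, 7.84 and 7.46. Rps3 had -0.29 at 13.90 and -0.52 at 9.71. The reported size of the difference thus varied with the probe set by more than the standard error in Rpl13a and Rps3. The Rpl41 values from signals of 7.84 and 7.46 had standard errors of 0.23 and 0.32. They did not pass the test (limma adjusted p = 0.15 and 0.16).

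Directions also differed. In 5 of the 20 genes at least 1 other probe set had an LV difference of the other sign. Rpl7l1 had -0.34 and -0.29 from probe sets at 10.28 and 9.53, and 0.88 from the third at 7.29, which rose in both ventricles when tested on its own (limma adjusted p = 0.0020 in LV, and 0.60 higher with adjusted p = 0.043 in RV). Rpl22 had -0.17 at 14.14, -0.26 at 12.90 and 0.36 at 10.54. With each of the 106 probe sets tested on its own, 5 rose and 18 fell in LV, against 15.6% and 9.94% of all probe sets. In RV 4 rose and 0 fell, against 3.72% and 2.59%.

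**Figure D4:**
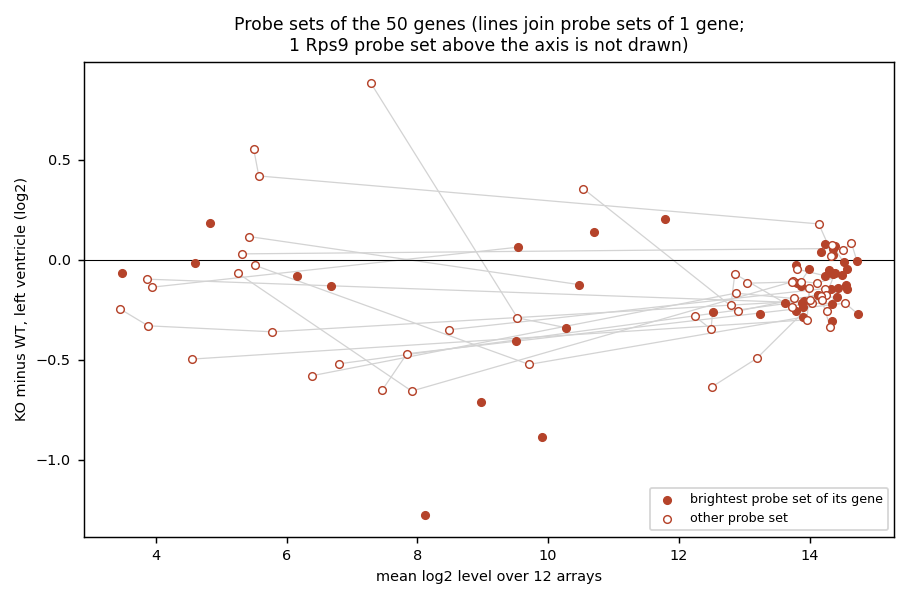
The LV difference KO minus WT in log2 units of each probe set of the 50 genes against its mean log2 level over 12 arrays, with filled points for the brightest probe set of a gene and lines between probe sets of one gene. The bright probe sets near 14 lie within 0.35 of 0, and those between 6 and 13 spread further. The Rps9 probe set with a difference of 5.31 is left off.

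Rps9, a small-subunit protein, had the largest disagreement. Its brightest probe set, 1433689_s_at, averaged 14.06 in WT LV and 13.86 in KO LV, a difference of -0.21 (limma adjusted p = 0.072). The probe set 1434624_x_at gave 8.60, 8.09 and 8.47 in WT LV, 8.07, 8.09 and 8.32 in WT RV, 13.79, 13.67 and 13.64 in KO LV and 13.73, 13.61 and 13.70 in KO RV. All 6 KO values lay above all 6 WT values by more than 5 log2 units, in both ventricles alike, with differences of 5.31 in LV and 5.52 in RV. The third, 1426958_at, differed by -0.52 in LV and 0.26 in RV and passed no test. Since 2 probe sets named for 1 gene differed this far, no level of Rps9 is drawn from 1434624_x_at.

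**Figure D5:**
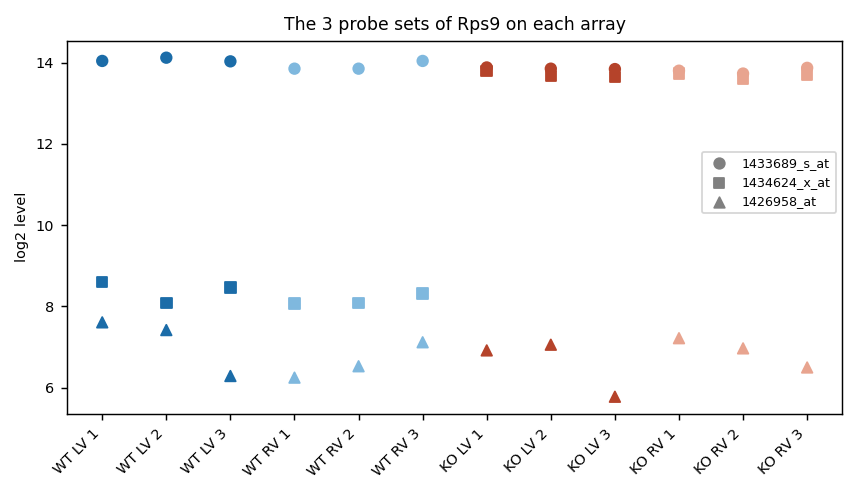
The log2 value of the 3 probe sets of Rps9 on each of the 12 arrays. The squares, 1434624_x_at, lie between 8.07 and 8.60 on the 6 WT arrays and between 13.61 and 13.79 on the 6 KO arrays, while the circles, 1433689_s_at, stay near 14 on every array.

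A further 110 probe sets carried a ribosomal protein symbol among several and named no gene. In LV 1 of them rose and 8 fell, where 15.6% of all probe sets rose and 9.94% fell, and their median difference was -0.07, with 82 negative. In RV 3 rose and 1 fell, against 3.72% and 2.59%, and their median was -0.005.

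The genes of the surrounding pathway were counted in the same test. Of 16 translation factors and related genes whose mRNAs also carry a TOP motif, 15 were measured, and in LV 2 rose and 4 fell. Pabpc1, the poly(A)-binding protein, rose by 0.27 and the initiation factor Eif4b by 0.36. The snoRNA host Gas5 fell by 0.51 and the initiation factor subunit Eif3h by 0.33. Of 16 other initiation factors 13 were measured, and 5 rose and 2 fell, among them the scaffold subunit Eif3a, higher by 0.94, and the cap-binding protein Eif4e, which fell by 0.29. All 40 genes of ribosome biogenesis and RNA polymerase I were measured, and 8 rose and 6 fell. The assembly factors Rrs1 and Rrp12 rose by 0.77 and 0.73, and the polymerase I subunit Polr1e and the assembly factor Nop16 fell by 0.48 and 0.42. In RV none of the TOP-motif or initiation factors passed the test, and of the biogenesis genes Rrs1 rose by 0.57 and Rrp9 fell by 0.43.

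Of 21 genes of mTOR signalling and TOP control, 18 were measured, and 7 rose in LV and 0 fell, with a median difference of 0.22. Larp1, which binds the TOP motif, rose by 0.64, and the kinase gene Rps6ka3 by 0.57. None passed the test in RV. Of 15 targets and regulators of p53, 12 were measured, and 6 rose in LV and 3 in RV, with 0 that fell. Btg2, an inhibitor of proliferation, rose by 1.09 and the RNA-binding protein gene Zmat3 by 0.99 in LV. In RV the receptor gene Eda2r rose by 0.99 and the cyclin gene Ccng1 by 0.69. These lists stood beside 12.3% of all genes lower and 18.6% higher in LV, and 3.58% lower and 4.61% higher in RV.

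Markers of other cell types moved in the same LV comparison, and their part in the result was not tested. Of 8 leukocyte markers 7 rose, with a mean log2 value of 7.61 to 7.71 on the WT LV arrays and 8.37 to 8.62 on the KO LV arrays, and 1 of the 8 lay below the median of all values. Of 8 endothelial and endocardial markers 6 rose, with means of 8.52 to 8.73 and 9.22 to 9.45. Of 7 measured fetal liver markers 2 fell, Afp and Alb, with means of 6.62 to 8.05 and 5.67 to 6.49, and of 6 nuclear noncoding RNAs 2 fell, with means of 9.80 to 10.79 and 8.48 to 9.89. Of 8 measured erythroid markers 2 rose and 1 fell, with means of 8.31 to 8.47 and 7.97 to 8.48. Of 6 epicardial markers 1 rose and 1 fell, of 7 mesenchymal markers 2 rose and 1 fell, of 10 cardiomyocyte markers 2 rose, and of 7 measured proliferation markers 1 rose and 1 fell.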

How the data were processed

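Total RNA was labelled with biotin as cRNA for Affymetrix arrays, as the labels' protocols state. The authors made the deposited log2 values with RMA, per the submitters' processing notes, and the table holds 45101 probe sets on 12 arrays. RMA makes the arrays' distributions alike, which can take out part of a shift common to most genes; the deposited arrays were not fully alike, with medians from 5.57 to 5.74. The genome build is not given in the sources used here, and scanner files were not analysed here. The platform annotation named a single gene for 34958 probe sets, more than one for 932 and none for 9211.

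Groups came from the sample titles. The brightest probe set of each of 18194 genes entered one limma model (limma 3.58.1, R 4.3.3) with 4 group means and 8 residual degrees of freedom, and p-values were adjusted by Benjamini-Hochberg over all genes with a threshold of 0.05. Python 3.11.15, scipy 1.17.1 and matplotlib 3.10.9 gave the permutation tests, summaries and plots. The number of arrays limits the precision. The ribosomal protein genes, the gene lists and the tests were chosen with earlier results of these data known. Named genes were the called members with the largest differences, the paralogues beside their canonical genes, the 3 brightest, dimmest and most variable members, those whose probe sets disagreed in sign, and up to 2 called genes per direction from each list; further members given as examples were chosen after their values were seen.

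On simulated data for the LV comparison (18194 genes), 50% of genes changed by 0.5 and 99% of those changed by 1 on the log2 scale were recovered, with 5 false calls. The simulation changed 100 genes by each size and drew the noise of each gene on its own. In the data 30.9% of genes were called and arrays can share shifts, so these rates describe the simulation only. Samples of different groups share replicate numbers in the titles. Arrays of the same number deviated together in every pair (correlations of 0.11, 0.26 and 0.31) for the RV genotype comparison and (0.21, 0.29 and 0.26) for the ventricles in KO. For the LV genotype comparison the correlations were 0.01, 0.14 and 0.42, and for the ventricles in WT 0.23, -0.01 and 0.15. Alternatives covered normalization, scaling, control covariates, variances, array weights, blocks, probe-set choice, the filter on dim genes, the threshold and each array left out.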

Additional observations from a re-analysis of the deposited data

Results flagged for a closer look

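Probe sets outside the one used per gene gave the following signals. The Rps9 probe set 1434624_x_at was higher in KO by 5.31 on the log2 scale in LV and by 5.52 in RV, past the test in both (limma adjusted p = 1.0e-10 and 6.4e-11). A probe set with several ribosomal protein symbols, 1453752_at, was higher by 1.00 in LV, where it missed the threshold (limma adjusted p = 0.070), and by 1.71 in RV (adjusted p = 0.018). Its values were 8.55, 9.67 and 9.38 in WT LV, 10.30, 10.09 and 10.21 in KO LV, 7.59, 9.05 and 9.36 in WT RV and 10.34, 10.10 and 10.70 in KO RV. Another, 1460442_at, was -1.20 in LV and -0.86 in RV, lower in KO in both (limma adjusted p = 0.00013 and 0.0031), with every KO value below every WT value. No genes were named from the last 2 because the annotation gives each several symbols. Groups of 3 arrays were too small for the check of single outlying arrays.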

How the results depend on the processing

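The 10 ribosomal protein genes lower in LV became 3 with the 18S covariate (5.25% of all genes) and 3 with the poly-A covariate (4.31%). The count was also 3 without the 2 arrays of extreme nuclear RNA (5.6%) and at an adjusted p under 0.01. The share of all genes that pass at 0.01 is not given here, so the count at 0.01 has no background beside it. With array weights the LV count became 16, where 2744 of all 18194 genes were lower. Without WT RV replicate 3 and KO RV replicate 3 it was 16 (14.6%). With an intensity trend and robust variances it became 18, where 2271 genes were lower. Leaving out 1 array at a time gave 4 (7.81%) to 15 (14.3%). In LV 2 genes were higher with the mean of probe sets, where 2599 of all 18194 genes were. With probe sets without x or s endings 1 was higher, where 2460 of all genes were. With the mean of probe sets the LV difference reversed to 0.084 for Rpl7l1 and 1.53 for Rps9, and the RV difference of Rps9 to 1.89, since the probe sets of opposite sign enter the mean. The 2 genes higher in RV became 3 with the mean of probe sets (Rps20, Rps4l and Rps9), where 607 of 18194 genes were higher. The count was 1 with the poly-A covariate (481 genes higher), a second quantile normalization (805) or without the 2 nuclear-RNA arrays (732). It was 0 with the RV groups alone (537) or without WT RV replicate 3 and KO RV replicate 3 (335). At 0.01 it was 0, again with no share of all genes beside it, and leaving out single arrays it was 0 to 1. The 0 lower in RV became 3 with the 18S covariate (1374 genes lower), 2 with array weights (1506) and 1 with the trend (666). Leaving out single arrays gave 0 to 2, the 2 without WT RV replicate 1 (718). The interaction gave 3 higher with array weights (2.84% of all genes) and 1 without WT RV replicate 3 and KO RV replicate 3 (134 genes). For it, leaving out single arrays gave 0 to 3, the 3 without WT RV replicate 3 (2.74%). Between WT ventricles, 6 were lower with array weights (4.27% of all genes) and 6 without those 2 arrays (4.34%). Leaving out single arrays gave 0 to 3 there, the 3 without WT RV replicate 3 (3.11%). The 13 without overlap became 9 with probe sets without x or s endings (4.83%) and 12 with the mean of probe sets (5.21%). They became 15 with median centring (5.71%) and 19 after a second quantile normalization (7.45%). They became 37 without those 2 arrays (15.1%) and 13 to 37 leaving out single arrays. The replicate number as a fixed replicate block kept the same 10 genes in LV, where 2638 of all 18194 genes were lower. The same 2 were kept in RV, where 1064 genes were higher, and no other call of a ribosomal protein gene changed. As a random block the replicate number added Rps15 and Rps19 in LV, for a count of 12 (2512 genes lower). The 2 in RV stayed (1027 genes higher). With no block, 2239 genes were lower in LV and 838 higher in RV. Other causes were not tested. The 18S covariate, the pair of RV arrays and the separate probe sets were alternatives chosen after seeing the data. Whether signals near the top of the scale limited the size of the differences was not tested. In LV the 35 bright ribosomal protein genes differed by -0.31 to 0.08, and all 230 genes of that level by -0.57 to 0.80.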
